A study of Arabidopsis thaliana with 32 samples.

Results

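The iron uptake and storage genes described here are 8 genes of Arabidopsis thaliana: the iron transporter gene IRT1, the transcription factor genes bHLH38 and bHLH39, the hydroxylase gene CYP82C4, the nicotianamine synthase gene NAS4, the vacuolar metal transporter gene MTPA2 and the ferritin genes FER1 and FER2. They were chosen by gene identifier, with earlier results of these data known. Every entry whose locus carries one of these identifiers was taken. The 8 genes lie at 7 of the 4882 loci that the authors' deposited tables list, because bHLH38 and bHLH39 share 1 locus. RNA was measured in whole roots cut from seedlings fixed in RNAlater. The plants grew under light on upright plates of solid medium, in the Veggie plant growth unit of the International Space Station (spaceflight) or in a matching unit in a chamber at the launch site (ground).

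The 8 groups of 4 samples each were Sku5 in spaceflight at 8 d, Sku5 on the ground at 8 d, WS in spaceflight at 8 d, WS on the ground at 8 d, and the same 4 kinds of plant at 4 d. WS is the wild type Wassilewskija. Sku5 is a mutant of the gene SKU5, which influences the way roots slant as they grow, and the sources used here name neither its allele nor its parent line. No group is labelled with any further allele or treatment. Each sample combined 5 to 8 roots of 4-d plants, or 2 to 3 roots of 8-d plants. The ground run followed the flight with a 48-h delay, so environment and run cannot be told apart. Age and the number of pooled roots cannot be told apart either.

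Iron is poorly soluble in most soils, and plants other than grasses take it up by acidifying the soil, reducing ferric to ferrous iron at the root surface and importing ferrous iron through IRT1 in the root epidermis. This uptake is switched on when iron is short, by the transcription factor FIT together with bHLH38, bHLH39 and their close relatives. Iron inside the plant is kept soluble by chelators such as nicotianamine, and surplus iron is stored in ferritin in plastids or in the vacuole. Ferritin genes are known for the opposite response, a rise when iron is plentiful, and FER2 is known as the ferritin of seeds.

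No source used here names the genome build of the coordinates below, which are the authors'. The IRT1 locus (AT4G19690) lies on chromosome 4 at 10434739 to 10450182. It is a merged locus that also carries the name AT4G19650, and reads of these genes cannot be told apart. The reference annotation TAIR10.1 places 3 further genes between them, among them IRT2, the near relative of IRT1. bHLH38 (AT3G56970) and bHLH39 (AT3G56980), neighbours with no gene between them in that annotation, form the locus on chromosome 3 at 20794233 to 20801783. CYP82C4 (AT4G31940) lies on chromosome 4 at 15158679 to 15161008, NAS4 (AT1G56430) on chromosome 1 at 20802772 to 20807411, MTPA2 (AT3G58810) on chromosome 3 at 21453156 to 21457115, and FER1 (AT5G01600) on chromosome 5 at 211221 to 217098. The FER2 locus (AT3G11050), on chromosome 3 at 3456799 to 3462435, is merged with AT3G11040, the gene of a cytosolic N-glycan glycosidase. IRT1 and FER2 below stand for these merged loci.

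The deposited tables cover 11 comparisons of a pair of groups, with 1 FPKM value (a fragment count scaled for locus length and library size) for each group and locus, and list only loci that the authors' Cuffdiff test marked significant at a q-value under 0.05. No value per library and no depth is given, so no spread between replicates could be computed, and a locus that is not listed has no known value in that comparison. The error given after a log2 fold change is that value over the authors' test statistic, a rough standard error (SE). Percentages of listed loci have as their base the 4882 loci found in at least 1 table, since the full number that the authors tested is unknown, which sets these percentages high. SKU5 itself was lower in Sku5 than in WS roots in 3 of 3 comparisons of the genotypes, by 3.34-fold to 4.35-fold in the authors' deposited tables. Sku5 was not set against WS here for spaceflight at 4 d. The samples are bulk roots, in which fewer cells of a type and less RNA per cell cannot be told apart, and since only called loci are listed, root markers could not be checked for absence.

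Most of the called changes at the iron loci were falls. Of 37 entries in the authors' deposited tables, 9 were higher and 28 lower in the first-named group, where all 10961 entries were 4891 higher and 6070 lower. Spaceflight over ground gave 2 higher and 9 lower, 8 d over 4 d gave 1 higher and 17 lower, and Sku5 over WS gave 6 higher and 2 lower. Over all listed loci the same tables gave 1613 higher and 2058 lower for spaceflight, 2197 higher and 2778 lower for age, and 1081 higher and 1234 lower for genotype, so lower entries were the majority there too. The entries are not separate results, since the comparisons share groups: 18 of the 37 come from the 3 comparisons that use ground-grown Sku5 at 4 d. Without those 3, spaceflight gave 1 higher and 5 lower, age 0 higher and 11 lower, and genotype 1 higher and 1 lower.

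Spaceflight against ground asked how roots of each genotype and age differed on orbit. IRT1, MTPA2 and, in Sku5, the bHLH38 and bHLH39 locus were lower in spaceflight, FER2 was higher in Sku5 in spaceflight, and no iron locus was listed for WS at 8 d. In WS at 4 d, 2 of the 7 loci were listed (2.62% of all listed loci), 0 higher (1.29%) and 2 lower (1.33%), with a median log2 fold change of -1.58, beside -0.62 over all called loci. In Sku5 at 4 d, 5 of 7 were listed (20.6%), 1 higher (12.3%) and 4 lower (8.34%), with a median of -1.33 where all called loci had 0.83. The loci higher in spaceflight thus outnumbered the lower ones over all loci of that comparison, while 4 of the 5 iron loci were lower.

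In WS at 8 d, 0 of 7 were listed (18.2%), 0 higher (8.4%) and 0 lower (9.79%). The count at an unadjusted p cannot be had for that comparison, since the authors' Cuffdiff table lists called loci only. In Sku5 at 8 d, 4 of 7 were listed (33.8%), 1 higher (11.1%) and 3 lower (22.7%), with a median log2 fold change of -0.99 beside -0.50 over all called loci. Whether the genotypes differed in these effects could be computed only for loci called in both, and at 8 d there was none.

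The comparison of 8 d with 4 d asked how roots of each genotype and environment changed with age. NAS4 fell with age in all 4 of its settings, and IRT1, the bHLH38 and bHLH39 locus and MTPA2 fell in 3 of 4. On the ground, WS gave 4 of 7 loci (22.6%), 0 higher (10.5%) and 4 lower (12.1%), with a median log2 fold change of -1.50 beside -0.45 over all called loci. WS in spaceflight gave 2 of 7 (22%), 0 higher (9.61%) and 2 lower (12.4%), a share near that of all loci, with a median of -1.31 beside -0.50.

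Sku5 on the ground gave 7 of 7 loci (20.9%), 1 higher (10.5%) and 6 lower (10.3%), with a median log2 fold change of -1.74 where all called loci had 0.44. Sku5 in spaceflight gave 5 of 7 (36.4%), 0 higher (14.3%) and 5 lower (22.1%), with a median of -1.67 beside -0.65. Ground-grown Sku5 was thus the setting in which every iron locus was listed. Its 4-d group has the highest level among the groups with a value at 5 of the 7 loci. How often this group ranks first over all listed loci was not counted. CYP82C4 and FER1 are listed only in tables that use this group, so their rank is over 4 and 3 of the 8 groups. Both count among the 7 loci only through this group, which in part sets the counts of iron loci in its comparisons.

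Sku5 against WS asked how the mutant root differed from the wild type. At 4 d on the ground, 6 of 7 loci were listed (7.8%), 5 higher in Sku5 (3.75%) and 1 lower (4.06%), with a median log2 fold change of 1.24 where all called loci had -0.49. At 8 d on the ground, 1 of 7 was listed (10.8%), 1 higher (6.51%) and 0 lower (4.24%), which is IRT1. In spaceflight at 8 d, 1 of 7 was listed (28.9%), 0 higher (11.9%) and 1 lower (17%), the bHLH38 and bHLH39 locus, below the share of all loci. The iron loci thus stood above the share of all loci for genotype at 4 d on the ground, and near or below it at 8 d. Since the genes were chosen with earlier results of these data known, these shares are a description only. Of the 6 loci listed at 4 d, CYP82C4 and FER1 are listed only in comparisons that use ground-grown Sku5 at 4 d.

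**Figure D1:**
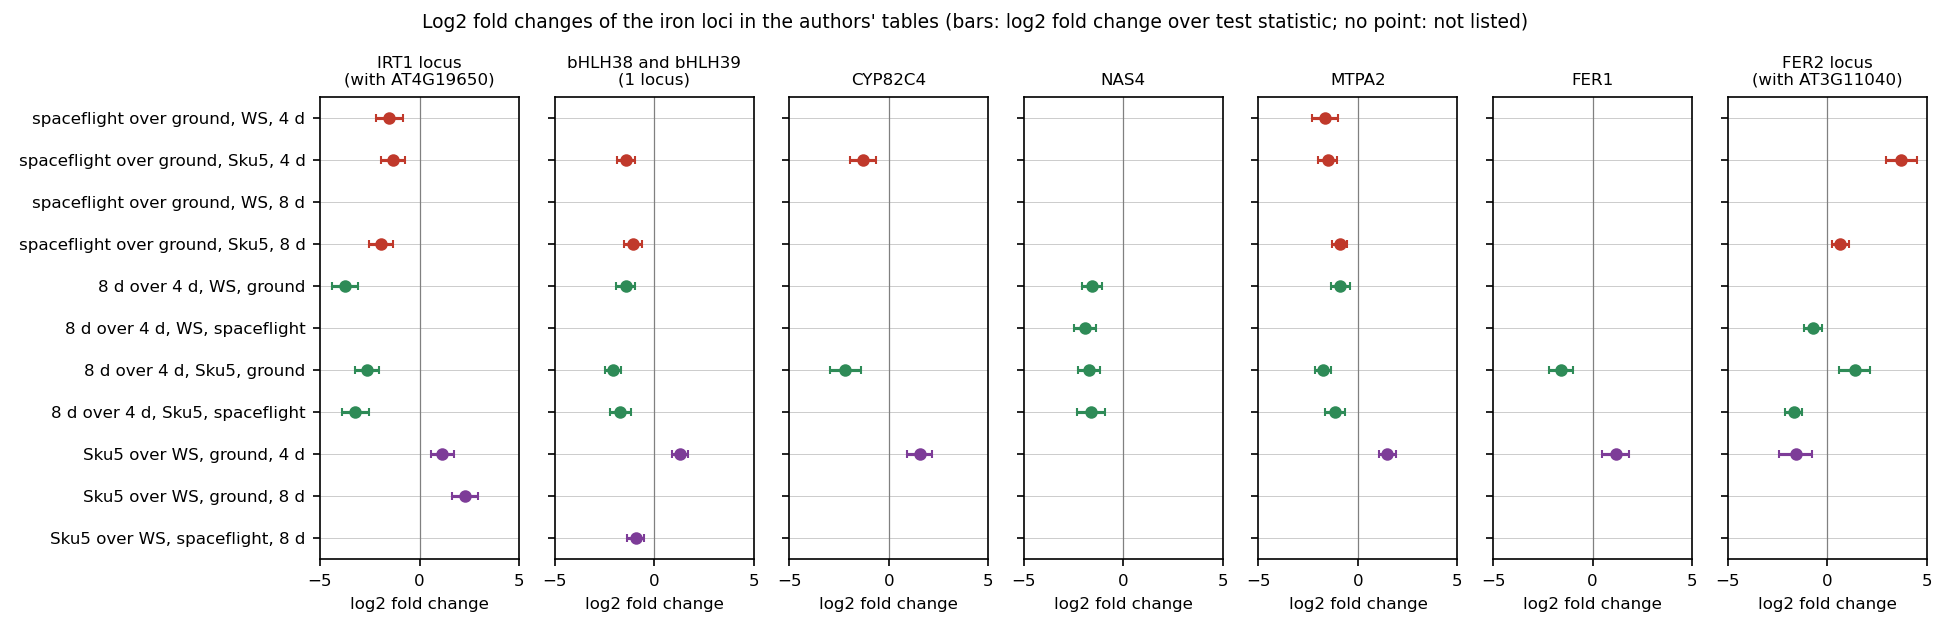
Log2 fold change of each iron locus (horizontal axis) in each of the 11 comparisons (rows) in the authors' tables, with bars of 1 SE taken as log2 fold change over test statistic and no point where a locus is not listed. The 4 points of NAS4 lie between -1.90 and -1.58, while FER2 has points on both sides of 0, the highest at 3.73.

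IRT1, the importer of ferrous iron, was listed in 8 of the 11 comparisons, lower in 6 and higher in 2. Its level, after the tables were put on a common scale, was 15.5 FPKM in Sku5 in spaceflight at 8 d, 58.7 in Sku5 on the ground at 8 d and 12.1 in WS on the ground at 8 d. At 4 d it was 137 FPKM in Sku5 in spaceflight, 338 in Sku5 on the ground, 52.1 in WS in spaceflight and 153 in WS on the ground. The highest of the 7 groups with a value stood 28.0-fold above the lowest. Every 4-d group thus lay above every 8-d group with a value, except that WS in spaceflight at 4 d was below Sku5 on the ground at 8 d. WS in spaceflight at 8 d has no value.

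IRT1 was lower in spaceflight in 3 comparisons. In 4-d WS roots the authors' deposited table gave 51.4 FPKM in spaceflight against 148 FPKM on the ground, a log2 fold change of -1.52 (SE 0.67, q = 0.0113). In 4-d Sku5 roots it gave 132 FPKM in spaceflight against 332 FPKM on the ground, -1.33 (SE 0.62, q = 0.00207). The effects of the 2 genotypes at 4 d differed by 0.20 (SE 0.91), which is within their error. In 8-d Sku5 roots the authors' deposited table gave 15.8 FPKM in spaceflight against 60.4 FPKM on the ground, -1.94 (SE 0.60, q = 0.00136).

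Age gave the largest changes of IRT1. In the authors' deposited table for WS on the ground it stood at 11.9 FPKM at 8 d against 161 FPKM at 4 d, 13.5-fold lower (log2 -3.76, SE 0.66, q = 0.00217). For Sku5 on the ground the authors' deposited table had 56.0 FPKM at 8 d against 345 FPKM at 4 d, 6.16-fold lower (log2 -2.62, SE 0.60, q = 0.00209). For Sku5 in spaceflight the authors' deposited table had 15.1 FPKM at 8 d against 142 FPKM at 4 d, 9.41-fold lower (log2 -3.23, SE 0.67, q = 0.00125). The fall on the ground was smaller in Sku5 than in WS by 1.13 (SE 0.89), within 2 SE. IRT1 was higher in Sku5 than in WS on the ground at both ages: 336 against 152 FPKM at 4 d (log2 1.15, SE 0.58, q = 0.00966) and 59.9 against 12.2 FPKM at 8 d (log2 2.30, SE 0.65, q = 0.00381) in the authors' deposited tables.

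bHLH38 and bHLH39 encode partners of FIT that rise under iron shortage, and their shared locus was listed in 7 comparisons, lower in 6. On the common scale its levels at 8 d were 16.7 FPKM in Sku5 in spaceflight, 34.0 in Sku5 on the ground, 30.9 in WS in spaceflight and 21.7 in WS on the ground. At 4 d they were 50.7 FPKM in Sku5 in spaceflight, 134 in Sku5 on the ground and 54.6 in WS on the ground. Every 4-d group with a value was above every 8-d group, and the highest was 8.04-fold above the lowest. How many of all listed loci part the ages in this way was not counted. At 8 d Sku5 in spaceflight was the lowest group, with WS on the ground next to it, a pair that no table compares.

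The locus was lower in spaceflight in Sku5 at both ages. At 4 d the authors' deposited table gave 48.9 FPKM in spaceflight against 132 FPKM on the ground (log2 -1.43, SE 0.45, q = 0.00207). At 8 d it gave 16.9 FPKM in spaceflight against 35.0 FPKM on the ground in the authors' deposited table (log2 -1.05, SE 0.46, q = 0.00246). Those effects differed by 0.38 (SE 0.64), within their error. With age the locus fell in the authors' deposited tables to 21.3 FPKM at 8 d against 57.3 FPKM at 4 d in WS on the ground (log2 -1.43, q = 0.00217), 32.4 against 137 FPKM in Sku5 on the ground (-2.08, q = 0.00209) and 16.2 against 52.6 FPKM in Sku5 in spaceflight (-1.70, q = 0.00125).

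Between genotypes the direction at this locus was not the same in each setting. On the ground at 4 d it was higher in Sku5, 133 against 53.9 FPKM in WS (log2 1.31, SE 0.41, q = 0.00558), in the authors' deposited table. In spaceflight at 8 d it was lower in Sku5, 16.9 against 32.1 FPKM in WS (log2 -0.93, SE 0.43, q = 0.00322), in the authors' deposited table. Those 2 comparisons differ in age and environment at once, so the change of direction cannot be given to either. For spaceflight in WS, the locus was listed at neither age.

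CYP82C4, a cytochrome P450 that makes the coumarin sideretin, which roots secrete under iron shortage, was listed in 3 comparisons, all of which use ground-grown Sku5 at 4 d. That group stood at 34.9 FPKM on the common scale, against 14.3 FPKM in Sku5 in spaceflight at 4 d, 12.0 FPKM in WS on the ground at 4 d and 8.28 FPKM in Sku5 on the ground at 8 d. The other 4 groups have no value. In the authors' deposited tables the log2 fold changes were -1.31 for spaceflight over ground in Sku5 at 4 d (SE 0.65, q = 0.00207), -2.17 for 8 d over 4 d in Sku5 on the ground (SE 0.80, q = 0.00209) and 1.55 for Sku5 over WS on the ground at 4 d (SE 0.64, q = 0.00558). All 3 rest on the same 4 libraries.

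NAS4 encodes a synthase of nicotianamine, the chelator that carries iron and other metals within the plant. It was listed for age in all 4 settings and in no comparison of environments or genotypes, where its fold changes are not known. In the authors' deposited tables it stood at 13.9 FPKM at 8 d against 41.5 FPKM at 4 d in WS on the ground (log2 -1.58, SE 0.48, q = 0.00217) and at 10.9 against 40.9 FPKM in WS in spaceflight (-1.90, SE 0.55, q = 0.00218). In Sku5 the authors' deposited tables gave 10.5 FPKM at 8 d against 34.6 FPKM at 4 d on the ground (-1.72, SE 0.56, q = 0.00209) and 9.68 against 30.0 FPKM in spaceflight (-1.63, SE 0.72, q = 0.00954). The folds ran from 2.98 to 3.74. On the common scale the 8-d groups lay between 9.96 and 14.2 FPKM and the 4-d groups between 29.0 and 40.4 FPKM, with no overlap. NAS4 was called as a fall in each setting, so part of this separation follows from the calls. How many of all listed loci show no overlap was not counted. The age effects differed between environments by -0.33 (SE 0.73) in WS and 0.09 (SE 0.91) in Sku5, both within their error.

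MTPA2 encodes a transporter that moves zinc into the vacuole, made in roots when iron is short and IRT1 lets in other metals. Like IRT1 it was lower in spaceflight in WS at 4 d and in Sku5 at both ages. At 4 d the authors' deposited tables gave 7.10 FPKM in spaceflight against 22.1 FPKM on the ground in WS (log2 -1.64, SE 0.66, q = 0.0113) and 21.6 against 62.0 FPKM in Sku5 (-1.52, SE 0.47, q = 0.00207). The genotypes' effects at 4 d differed by 0.12 (SE 0.81), within their error. At 8 d in Sku5 the authors' deposited table gave 10.9 FPKM in spaceflight against 20.8 FPKM on the ground (-0.93, SE 0.39, q = 0.00136).

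With age MTPA2 fell in the same 3 settings as IRT1. The authors' deposited tables gave 13.02 FPKM at 8 d against 24.1 FPKM at 4 d in WS on the ground (log2 -0.89, SE 0.48, q = 0.0114), 19.3 against 64.4 FPKM in Sku5 on the ground (-1.74, SE 0.39, q = 0.00209) and 10.5 against 23.2 FPKM in Sku5 in spaceflight (-1.15, SE 0.49, q = 0.00125). The age effects on the ground differed between Sku5 and WS by -0.85 (SE 0.62), within 2 SE. On the ground at 4 d MTPA2 was higher in Sku5, 62.8 against 22.7 FPKM in WS (log2 1.47, SE 0.43, q = 0.00558), in the authors' deposited table. Its lowest level on the common scale was that of WS in spaceflight at 4 d, 7.19 FPKM, and its highest, 63.0 FPKM in Sku5 on the ground at 4 d, was 8.77-fold above.

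**Figure D2:**
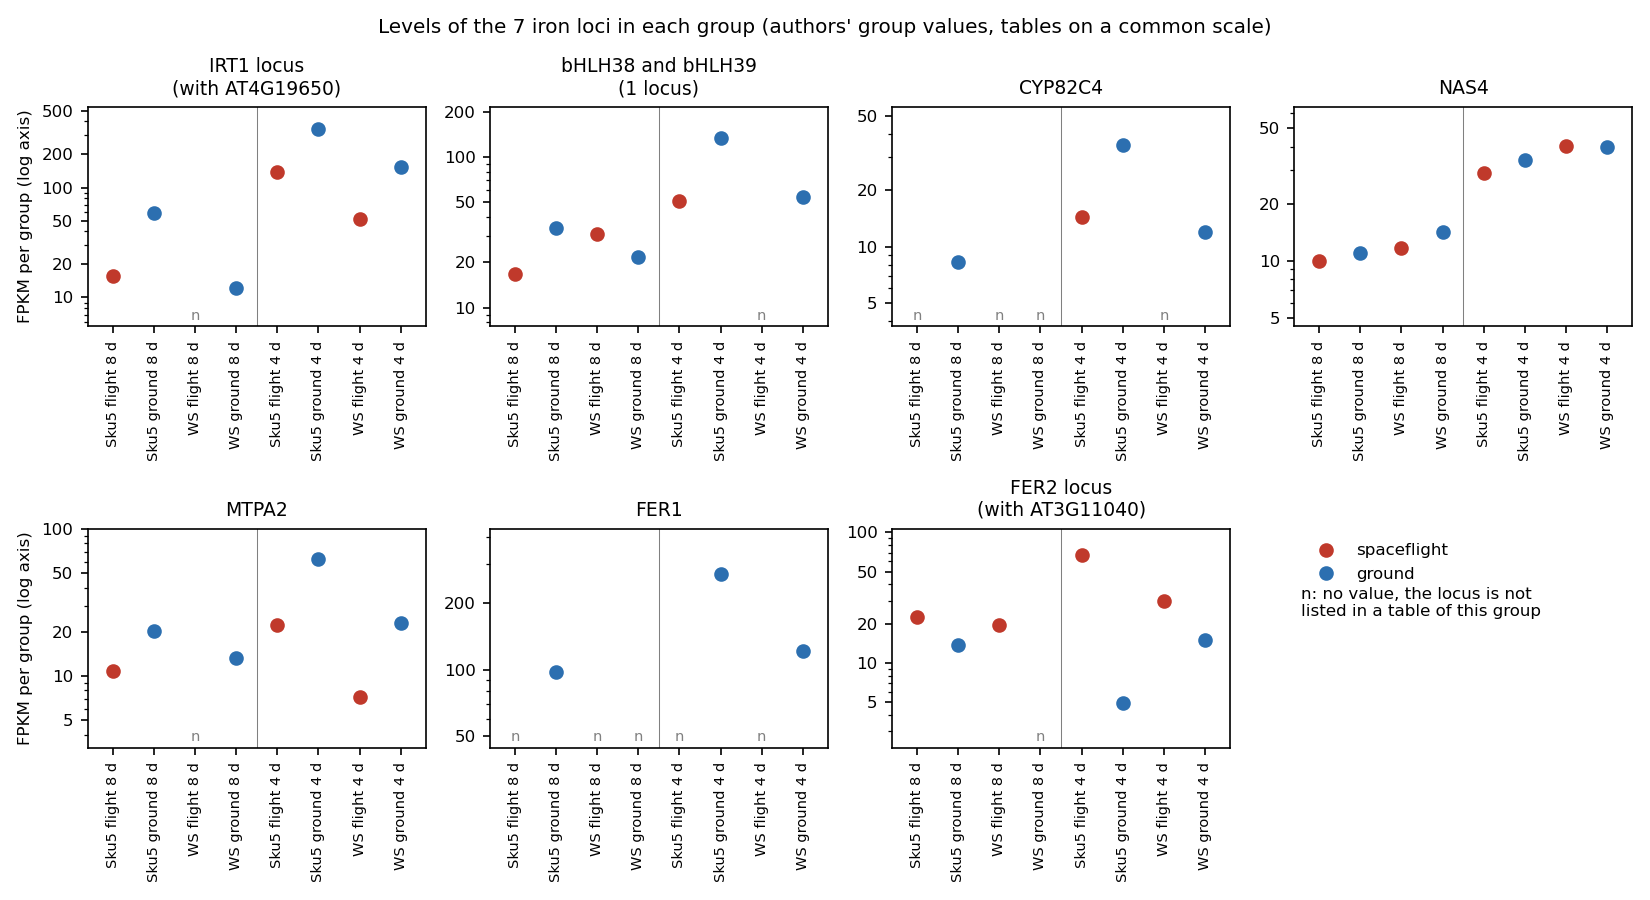
FPKM of each iron locus in each group on a log axis, the authors' group values with all tables on a common scale; red points are spaceflight, blue points ground, n marks a group with no value, and the line parts 8 d (left) from 4 d (right). Among the groups with a value, Sku5 on the ground at 4 d is the highest at 5 loci (338 FPKM for IRT1) and the lowest at FER2 (4.95 FPKM). Of the 5, CYP82C4 and FER1 are listed only in comparisons that use this group. How often this group ranks first over all listed loci was not counted.

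The ferritins, which store iron in plastids, did not follow a single pattern. FER1, a ferritin known to rise under iron excess, was listed in 2 comparisons, which share ground-grown Sku5 at 4 d. It stood at 93.5 FPKM at 8 d against 279 FPKM at 4 d in Sku5 on the ground (log2 -1.58, SE 0.62, q = 0.00209) in the authors' deposited table. On the ground at 4 d it was higher in Sku5, 272 against 121 FPKM in WS (log2 1.17, SE 0.67, q = 0.0403), in the authors' deposited table. In both comparisons FER1 and IRT1 moved the same way, and both values of ground-grown Sku5 at 4 d come from the same libraries.

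FER2 gave the largest single rise among the iron loci. In Sku5 at 4 d it stood at 64.6 FPKM in spaceflight against 4.87 FPKM on the ground, 13.3-fold higher (log2 3.73, SE 0.78, q = 0.00207), in the authors' deposited table. In Sku5 at 8 d the authors' deposited table had 22.7 FPKM in spaceflight against 14.2 FPKM on the ground (log2 0.67, SE 0.41, q = 0.0180). The effect at 8 d was smaller than that at 4 d, with a difference of -3.06 on the log2 scale (SE 0.88), 3.46 times its SE. For WS the spaceflight effect was listed at neither age, and whether it differed from that in Sku5 was not tested.

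The age effect at FER2 had opposite signs in the environments of Sku5. In spaceflight it fell to 21.7 FPKM at 8 d, against 69.3 FPKM at 4 d (log2 -1.67, SE 0.43, q = 0.00125), and on the ground it rose to 13.2 FPKM at 8 d, against 5.06 FPKM at 4 d (log2 1.38, SE 0.77, q = 0.0202), in the authors' deposited tables. That difference, again -3.06 (SE 0.88), is the same interaction of environment and age over the same 4 groups. In WS in spaceflight FER2 fell to 18.4 FPKM at 8 d, against 30.3 FPKM at 4 d (log2 -0.72, SE 0.46, q = 0.0290), in the authors' deposited table. On the ground at 4 d FER2 was lower in Sku5, 4.93 against 14.7 FPKM in WS (log2 -1.58, SE 0.82, q = 0.0284), in the authors' deposited table. On the common scale the order of groups was Sku5 in spaceflight at 4 d (66.9 FPKM), WS in spaceflight at 4 d (29.9), Sku5 in spaceflight at 8 d (22.3), WS in spaceflight at 8 d (19.6), WS on the ground at 4 d (14.9), Sku5 on the ground at 8 d (13.8) and Sku5 on the ground at 4 d (4.95). All 4 spaceflight groups thus lay above the 3 ground groups that have a value. How many of all listed loci part the environments in this way was not counted. The order spans groups that no comparison pairs, and WS on the ground at 8 d has no value. For spaceflight in WS, FER2 is listed at neither age.

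Genes of seed reserves and late embryogenesis moved with FER2 in 5 of its 6 comparisons. Of a list of 10 such seed genes, 8 are listed in any table. Each sum of FPKM covers only the genes called in that comparison, so sums of different comparisons cover different genes. In Sku5 at 4 d, 3 were higher in spaceflight, with a summed 1635 FPKM in spaceflight against 2.88 FPKM on the ground, where SESA3, a seed storage albumin gene, is listed at 0. At 8 d 5 were higher, with 255 FPKM in spaceflight against 3.93 FPKM on the ground, where 2 are listed at 0. In Sku5 in spaceflight 7 fell with age, to a summed 262 FPKM at 8 d, against 6867 FPKM at 4 d. In WS in spaceflight 4 fell, with all 4 listed at 0 at 8 d, against 165 FPKM at 4 d, and 3 were lower in Sku5 than in WS on the ground at 4 d (2.91 against 258 FPKM).

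The match was not complete. FER2 rose with age in Sku5 on the ground, where 0 of the seed genes were called. It is not listed for spaceflight in WS at 4 d, where 2 seed genes were higher (514 FPKM in spaceflight against 215 FPKM on the ground), nor for age in WS on the ground, where 5 fell to 0 at 8 d, against 134 FPKM at 4 d, nor for genotype in spaceflight at 8 d, where 2 were higher in Sku5 (29.8 FPKM against 0 in WS). The part of seed material in the FER2 values was not tested.

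**Figure D3:**
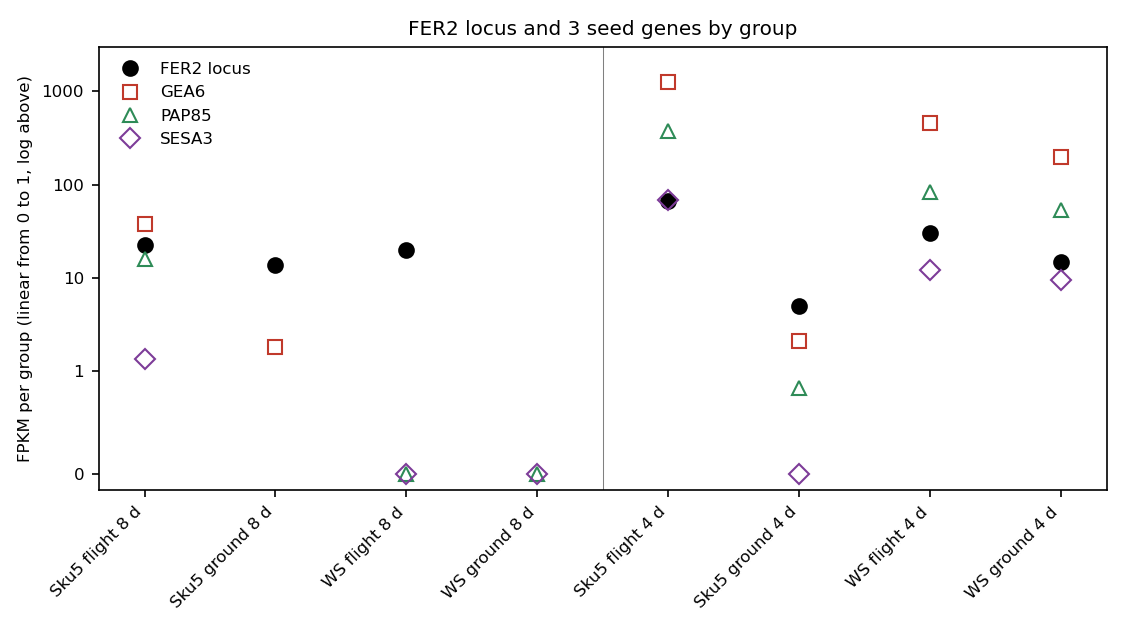
FPKM of the FER2 locus and of the seed genes GEA6, PAP85 and SESA3 in each group (common scale, linear to 1 and log above), with 8 d left of the line and 4 d right of it. Among the groups with a value, all 4 are highest in Sku5 in spaceflight at 4 d (66.9 FPKM for FER2, 1248 FPKM for GEA6), and in Sku5 on the ground at 4 d FER2 has 4.95 FPKM beside 2.09 FPKM for GEA6.

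Genes of Rubisco and its activase, taken as markers of green shoot tissue, moved with age as several iron loci did. Of a list of 8 shoot genes, for the small subunit of Rubisco, Rubisco activase and light-harvesting proteins, 5 are listed in any table. None of the light-harvesting genes is listed, so whether they changed is not known. Sums again cover only the genes called in each comparison. At 8 d 5 were lower in WS on the ground (a summed 106 FPKM at 8 d against 260 FPKM at 4 d), 5 in WS in spaceflight (102 against 528 FPKM), 3 in Sku5 on the ground (72.6 against 230.2 FPKM) and 4 in Sku5 in spaceflight (71.3 against 227 FPKM). These are the 4 settings in which NAS4 fell, and the part of shoot tissue in the age effects was not tested. In WS at 4 d, where IRT1 and MTPA2 were lower in spaceflight, 5 shoot genes were higher there (514 FPKM in spaceflight against 239 FPKM on the ground). For spaceflight in Sku5 at either age, and for genotype on the ground at 4 d, 0 shoot genes were called, and 1, RBCS1A, was lower in Sku5 than in WS at 8 d in each environment.

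Among other genes of iron handling, a list of 49 genes chosen by role gave 17 loci of 16 genes in any table, with 45 entries, 10 higher and 35 lower. Regulators gave 8 loci of 17 genes (4 higher, 19 lower). Of 5 uptake genes only AHA2 was listed, at 2 loci (1 higher, 3 lower). Secreted coumarins gave 1 locus of 5 genes (1 higher). Chelation and transport gave 3 loci of 10 genes (3 higher, 8 lower), and storage and the vacuole 3 loci of 12 genes (1 higher, 5 lower). FRO2, the ferric reductase that acts beside IRT1, the coumarin gene F6'H1, the other nicotianamine synthase genes NAS1 and NAS3 and the ferritin genes FER3 and FER4 are not listed in any table. The coumarin gene S8H is not listed either, nor are the regulators bHLH100, bHLH101, bHLH104, bHLH34, ILR3, BTSL2, IMA3, MYB10 and MYB72. For spaceflight over ground the list gave 1 of 17 in WS at 4 d (5.88%, where all loci gave 2.62%), 3 in Sku5 at 4 d (17.6% against 20.6%), 2 in WS at 8 d (11.8% against 18.2%) and 7 in Sku5 at 8 d (41.2% against 33.8%). The 7 in Sku5 at 8 d include both loci named AHA2 and the merged locus of bHLH115. For age it gave 7 in WS on the ground (41.2%, where all loci gave 22.6%), 2 in WS in spaceflight (11.8% against 22%), 6 in Sku5 on the ground (35.3% against 20.9%) and 9 in Sku5 in spaceflight (52.9% against 36.4%), with 1 of the 9 higher and all others lower. For genotype it gave 3 on the ground at 4 d (17.6%, where all loci gave 7.8%), 1 on the ground at 8 d (5.88% against 10.8%) and 4 in spaceflight at 8 d (23.5% against 28.9%). The wider list thus stood below the share of all loci in 5 of the 11 comparisons, among them spaceflight in Sku5 at 4 d and age in WS in spaceflight. The median log2 fold changes of the called loci ran from -1.01 to -0.68 over the 4 age comparisons, where those of all called loci ran from -0.65 to 0.44.

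FIT (AT2G28160), the partner of bHLH38 and bHLH39, was listed in 6 comparisons in which their locus was listed too. It was lower in spaceflight in Sku5 in the authors' deposited tables, at 28.5 against 56.6 FPKM on the ground at 4 d (log2 -0.99, q = 0.00207) and at 17.6 against 25.5 FPKM at 8 d (-0.54, q = 0.0191). With age FIT fell in WS on the ground (-0.68), in Sku5 on the ground (-1.31) and in Sku5 in spaceflight (-0.87) in the authors' deposited tables. On the ground at 4 d FIT was higher in Sku5, 57.4 against 33.6 FPKM in WS (log2 0.77, q = 0.00558), in the authors' deposited table. BTSL1, merged with AT1G74800, encodes a ubiquitin ligase that acts on FIT, and was lower in spaceflight in Sku5 at 4 d and 8 d (-1.04 and -0.68), lower at 8 d than at 4 d in Sku5 on the ground (-0.98) and higher in Sku5 than in WS on the ground at 4 d (0.95) in the authors' deposited tables.

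BTS, the ubiquitin ligase gene that restrains the iron deficiency response, was listed for spaceflight in WS at 8 d, where none of the 7 iron loci was. It was higher in spaceflight, 4.37 against 2.05 FPKM on the ground (log2 1.09, q = 0.00259), in the authors' deposited table. With age BTS fell in WS on the ground (-1.37), in Sku5 on the ground (-0.75) and in Sku5 in spaceflight (-0.83) in the authors' deposited tables. bHLH121, a regulator upstream of bHLH38 and bHLH39, was higher in spaceflight in Sku5 at 4 d, 36.5 against 13.9 FPKM on the ground (log2 1.39, q = 0.00207), in the authors' deposited table, where that locus was lower. In Sku5 in spaceflight bHLH121 was lower at 8 d than at 4 d (-0.65) in the authors' deposited table. The peptide gene IMA1 was lower in Sku5 than in WS in spaceflight at 8 d, 45.2 against 101 FPKM (log2 -1.16, q = 0.00182), as was the bHLH38 and bHLH39 locus, in the authors' deposited table. IMA1 was also lower at 8 d than at 4 d in spaceflight in WS (-0.66) and Sku5 (-0.73) in the authors' deposited tables. The locus of bHLH115 is merged with AT1G51060. In the authors' deposited tables it was lower in 8-d Sku5 in spaceflight than on the ground (567 against 777 FPKM, log2 -0.45). It was also lower there than in WS in spaceflight (567 against 709 FPKM, log2 -0.32). Reads of these genes cannot be told apart, so the changes cannot be given to bHLH115, though the locus is counted in the wider list.

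FRD3, the citrate exporter that loads iron into the xylem, fell with age in all 4 settings, as NAS4 did, with log2 fold changes of -1.85 in WS on the ground, -0.69 in WS in spaceflight, -1.88 in Sku5 on the ground and -0.96 in Sku5 in spaceflight in the authors' deposited tables. In spaceflight FRD3 was lower in WS at 4 d (18.9 against 35.2 FPKM on the ground, q = 0.0113) and higher in Sku5 at 8 d (15.6 against 11.1 FPKM on the ground, q = 0.0409) in the authors' deposited tables. NAS2 was lower in spaceflight in Sku5 at 8 d, 5.45 against 14.3 FPKM on the ground (log2 -1.39, q = 0.00136), in the authors' deposited table, where NAS4 is not listed. NAS2 also fell with age in WS on the ground (-0.84) and in Sku5 in spaceflight (-1.55) in the authors' deposited tables. The metal transporter gene YSL3 was higher in spaceflight in WS at 8 d (0.57) and higher in Sku5 than in WS on the ground at 4 d (0.83) in the authors' deposited tables. VTL1 and VTL5, of a family related to vacuolar iron transporters, fell with age in the authors' deposited tables: VTL1 1.87-fold in WS on the ground and 1.78-fold in Sku5 in spaceflight, VTL5 2.02-fold in WS and 1.99-fold in Sku5 on the ground. VTL1 was higher in Sku5 than in WS in spaceflight at 8 d (log2 0.93) in the authors' deposited table.

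AHA2, a plasma membrane proton pump that acidifies the soil, carries its name at 2 loci in the authors' deposited tables. The locus with the higher level stood at 713 FPKM in spaceflight against 1156 FPKM on the ground in Sku5 at 8 d (log2 -0.70, q = 0.00136), at 692 FPKM at 8 d against 1224 FPKM at 4 d in WS on the ground (-0.82, q = 0.00383) and at 1143 FPKM in Sku5 against 709 FPKM in WS on the ground at 8 d (0.69, q = 0.00381) in the authors' deposited tables. In those 3 comparisons IRT1 was listed with the same sign. The other AHA2 locus was lower in spaceflight in Sku5 at 8 d (-1.69, q = 0.0330) in the authors' deposited table.

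**Figure D4:**
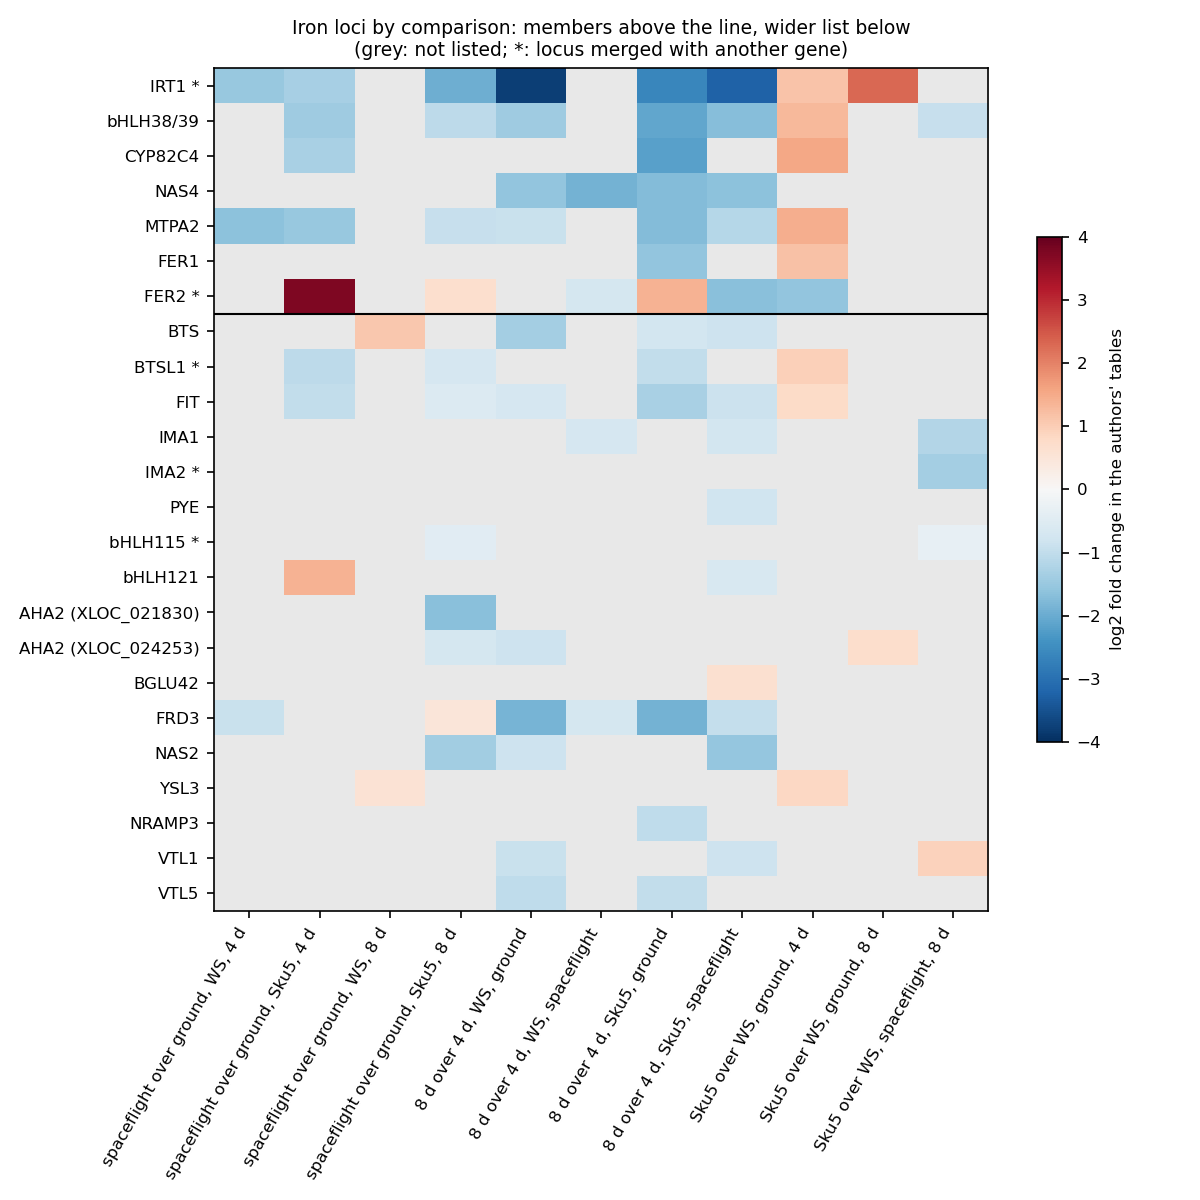
Log2 fold changes in the authors' tables for the 7 iron loci (above the line) and the 17 loci of the wider list (below it) in the 11 comparisons, blue lower and red higher in the first-named group, grey not listed, with an asterisk at merged loci. The age columns are blue apart from FER2 in Sku5 on the ground (1.38) and BGLU42 in Sku5 in spaceflight (0.65).

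The genes whose fold changes lay nearest to those of each locus, over the comparisons in which it was called, were sought among loci of a single gene name listed in all of the same comparisons. Those comparisons share groups, so the likeness is a description. For IRT1 1 gene, AT1G73120, was listed in all 8, at a mean absolute difference of 0.62 on the log2 scale. For the bHLH38 and bHLH39 locus, with 5 candidates over 7 comparisons, the nearest was AT1G29640 (0.36), before MAP18, of a microtubule-associated protein (0.61), and GRP-3, of a glycine-rich protein (1.29). MTPA2 had 7 candidates over 7 comparisons, with MAP18 nearest (0.48), before AT3G59930 (0.87) and AT1G73120 (1.23). CYP82C4, with 99 candidates over 3 comparisons, lay nearest to AT5G13210 (0.24), to MTPA2 (0.24) and to AT3G07720 (0.27). NAS4, with 153 candidates over 4 comparisons, lay nearest to SRG3, of a glycerophosphodiester phosphodiesterase (0.12), the shoot gene RBCS1A (0.25) and the lipid transfer gene LTP2 (0.26). FER2 had no close match among its 8 candidates over 6 comparisons: the nearest, the nitrate uptake gene WR3, differed by 1.98, before GSTU5 (2.12) and MLS (2.17).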

How the data were processed

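Whole roots of 32 samples, 4 in each of 8 groups, were sequenced by the authors. Per the labels' protocols, cDNA was made from 10 ng of RNA by SMART-Seq v4, and libraries with a Nextera kit. The submitters' processing notes name Cuffdiff, Cufflinks, Picard, STAR 2.5.1b, FastQC 0.11.2 and Trimmomatic 0.36. The genome build was not given in the sources used here. The authors deposited 11 tables with 10961 entries, which give per the file headers an FPKM value for each group, a log2 fold change, a test statistic (a signed score), a p-value and a q-value. The deposited p-values come in steps of 5e-05, and 27 of the 37 entries of the iron loci have that least value. All listed loci are marked significant, so tested loci that were not called are not known. Depth per sample is unknown, and the planned fit of separate libraries could not be made.

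Fold changes were turned, with Python 3.11.15 and pandas 2.3.3, so that spaceflight, 8 d and Sku5 stand on top. A group's values in different tables are apart by a fixed factor, at most 10.8% (SD of the log2 ratio at most 0.00245 over 20 pairs of tables), and levels set across tables were put on a common scale by these factors. Differences of 2 effects were computed for loci called in both tables of a pair that shares no group, 19 in all of 14 distinct interactions, as a difference over its SE and with no p. Medians over all called loci leave out the 146 entries with an infinite fold change. The steps were tested on simulated data.

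All 8 genes, the 49 genes of the wider list and the marker genes were found by identifier in the RefSeq annotation TAIR10.1. The authors' coordinates overlapped the same gene there for 276 of 4446 single-gene loci (6.21%), so no sequence or coordinate was taken from it, and it served for names and gene order only. The members and lists were chosen with earlier results of these data known. All members are named. Of the wider list, genes called in at least 2 comparisons or changed at least 3-fold in 1 are named with values. IRT2, FRO2, F6'H1, S8H, NAS1, NAS3, FER3, FER4, BGLU42 and the regulators that are not listed in any table are named outside that rule. Up to 3 most alike genes are named for each locus called in at least 3 comparisons. The alternatives were a q-value under 0.01, a change of at least 2-fold, loci of a single gene name only, the common scale, an SE from the deposited p-value and, chosen after seeing the data, leaving out the tables that use ground-grown Sku5 at 4 d.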

Additional observations from a re-analysis of the deposited data

Results flagged for a closer look

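At the FER2 locus the effect of spaceflight in Sku5 differed between the ages. The log2 fold change of spaceflight over ground was 0.67 at 8 d and 3.73 at 4 d, a difference of -3.06 (SE 0.884). The same 4 groups read as age effects gave -1.67 in spaceflight and 1.38 on the ground, again a difference of -3.06 (SE 0.885), so this is 1 interaction seen in 2 ways. With the SE from the test statistic, it was the only one of the 14 distinct interactions computed at the iron loci that lay beyond 2 SE. With an SE from the deposited p-value, the FER2 age effects in spaceflight also differed between Sku5 and WS, by 2.04 SE. Seed genes moved the same way as FER2 in 3 of the 4 tables of the interaction of environment and age. Their part in that interaction was not tested. Outlying samples could not be sought, since no value per library was given.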

How the results depend on the processing

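No paired analysis was possible because the tables hold 1 value per group and none per library; for the same reason leaving out replicates, a replicate block, pseudocounts and a filter on low values were not run. With a change of at least 2-fold, the iron loci listed fell to 2 for spaceflight in Sku5 at 8 d. They fell to 3 and 1 for age in ground and flight WS and to 0 for genotype in spaceflight at 8 d. The same minimum left of the wider list 0 and 1 for spaceflight in WS at 4 d and 8 d, and 2 and 2 in Sku5. For age it left 3 and 0 in ground and flight WS, and 3 and 1 in Sku5 on the ground and in spaceflight. For genotype it left 0 and 0 on the ground at 4 d and 8 d and 2 in spaceflight. Keeping loci of a single gene name only leaves out IRT1, the bHLH38 and bHLH39 locus and FER2 by construction. The iron loci listed were then 1 for spaceflight in WS at 4 d, and 2 and 1 in Sku5 at 4 d and 8 d. For age they were 2 and 1 in ground and flight WS, and 4 and 2 in Sku5 on the ground and in spaceflight. For genotype they were 3 and 0 on the ground at 4 d and 8 d and 0 in spaceflight. The wider list then kept 2 and 5 for spaceflight in Sku5 at 4 d and 8 d and 5 for age in Sku5 on the ground. For genotype it kept 2 on the ground at 4 d and 2 in spaceflight. With a q-value under 0.01, iron loci were 0 for spaceflight in WS at 4 d and 3 for spaceflight in Sku5 at 8 d. For age they were 3 in WS on the ground, 1 in WS in spaceflight and 6 in Sku5 on the ground. For genotype on the ground at 4 d they were 4, without FER1 and FER2. Iron loci of the other comparisons kept their counts. The wider list gave 0 and 1 for spaceflight in WS at 4 d and 8 d, and 2 and 3 in Sku5. For age it gave 5 and 0 in ground and flight WS, and 4 and 5 in Sku5 on the ground and in spaceflight. For genotype it gave 1 on the ground at 4 d and 2 in spaceflight. With an SE from the deposited p-value, the difference of the FER2 age effects in spaceflight between Sku5 and WS came to 2.04 SE, against 1.52 SE. Without the tables that use ground-grown Sku5 at 4 d, 19 of the 37 entries are left (spaceflight 1 higher and 5 lower, age 0 and 11, genotype 1 and 1). On the common scale all 37 fold changes kept their direction, and the largest shift was 0.11 on the log2 scale, for age in WS in spaceflight. The depth behind these values is unknown, so a locus that is not listed cannot be called unchanged.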

Other observations

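Among the groups with a value, which are 3 at FER1, 4 at CYP82C4 and 7 at IRT1, bHLH38 and bHLH39, MTPA2 and FER2, ground-grown Sku5 at 4 d had the highest level at IRT1, the bHLH38 and bHLH39 locus, CYP82C4, MTPA2 and FER1, and the highest at FIT (57.6 FPKM on the common scale, beside 17.3 to 34.0 FPKM in the other 5 groups with a value), and the lowest level at FER2. In the same group the seed gene GEA6 stood at 2.09 FPKM, against 198 FPKM in WS on the ground at 4 d. CYP82C4 and FER1 are listed only in comparisons that use ground-grown Sku5 at 4 d, so their rank comes only from those. How often ground-grown Sku5 at 4 d ranks first or last over all listed loci was not counted.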
